A study of Mus musculus with 2 samples.

Results

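The genes described here encode potassium channels, calcium channels and calcium-release channels, ATP-gated P2X receptors, TRP channels and Piezo channels, together with the STIM and Orai proteins of store-operated calcium entry. They were chosen by name: every probe set whose symbol in the platform annotation is Kcn with a family letter (A to K, M, N, Q, T, U or V) directly followed by a digit, which leaves out Kcnab, Kcnip, Kcnma and Kcnmb genes, or belongs to the Orai, Stim, Trpc, Trpm, Trpv, Itpr, P2rx, Cacna, Cacnb, Cacng, Ryr and Piezo genes. The naming rule itself uses no measured value, though it was set with earlier results of these data known. It gave 136 genes, each with 1 probe set, among 19572 probe sets with a gene symbol. Of the 136, 75 carry a Kcn symbol and 61 do not, and 1 of the 75, Kcnq1ot1, is a non-coding RNA from the Kcnq1 locus rather than a channel subunit.

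Total RNA was hybridised to Affymetrix whole-transcript arrays, with 1 array of mouse Tc1 cells and 1 array of mouse Tc9 cells. Tc1 and Tc9 cells are CD8+ T cells polarized in culture, the former toward interferon gamma and cytotoxicity and the latter toward interleukin 9. CD8+ cells from spleen and lymph node were primed with plate-bound antibody to CD3 and soluble antibody to CD28, polarized for 3 days and cultured for 2 more days with rhIL-2 at 10 ng/mL, and RNA was taken on day 5. During polarization the Tc9 cells received IL-4 at 10 ng/mL, TGF-β at 1 ng/mL and the anti-IFN-γ antibody XMG1.2 at 20 µg/mL, and the Tc1 cells received rhIL-2 at 10 ng/mL. No strain, age or pooling of animals is given in the labels, and no group carries a genetic change in them. The series' stated purpose was to pick out genes with higher expression in Tc9 than in Tc1 cells. No group has a replicate array, so no error, test or p-value can be given, and each difference describes this pair of arrays.

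T cells signal through calcium for hours after the antigen receptor is engaged. Receptor signalling makes inositol trisphosphate, which opens IP3 receptors in the endoplasmic reticulum; STIM proteins sense the emptied store and open Orai channels in the plasma membrane, and the calcium that enters activates calcineurin and the NFAT factors. Potassium channels let positive charge leave the cell, which keeps the membrane negative and so maintains the drive for calcium entry. In T cells this role is best known for the voltage-gated channel Kv1.3, encoded by Kcna3, and the calcium-activated channel KCa3.1, encoded by Kcnn4, with K2P leak channels such as TASK-2, encoded by Kcnk5, also described. P2X receptors are cation channels opened by extracellular ATP.

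The labelled identity was read from markers. All 9 measured CD8 T cell markers were above the detection threshold on both arrays, with Cd3e at log2 intensities of 12.92 (Tc1) and 12.80 (Tc9) and Cd8a at 12.19 and 11.93. Pairs of values below are log2 intensities with Tc1 before Tc9. The source name of the Tc9 sample reads Tc1, while its title and description read Tc9. Il9 was at 4.82 and 8.45, and Ifng at 9.28 and 7.57, which are the directions of the titles. Markers of other cells were present. All 8 measured B cell markers reached the threshold on at least 1 array, with Cd79a at 10.65 and 9.68. Signals were lower on the Tc9 array for all 8 of these, with summed intensities of 4629 and 3246, and also for all 9 CD8 T cell markers, with sums of 29239 and 23088, except that Ebf1 and Cd3g turned after median centring. Of the CD4 T cell markers, Cd4 was at 9.33 and 8.74 and Zbtb7b at 8.03 and 8.38, and Cd40lg was under the threshold. Of 6 monocyte and macrophage markers, Lyz2 and Fcgr3 reached the threshold and Csf1r, Adgre1, Cd14 and Mrc1 did not, with summed intensities of 844.2 and 835.1. None of the 3 NK cell markers reached it. In RNA from a whole culture, fewer cells of a type and less RNA per cell cannot be told apart.

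The detection threshold was the median of all gene probe set values over both arrays, a log2 intensity of 6.42. A gene that reached it on at least 1 array is called detectable. Most of the channel genes were not: 36 of 136 (26.5%) were detectable, against 52.0% of all gene probe sets. Of the 36, 28 reached the threshold on both arrays, 6 on the Tc1 array alone and 2 on the Tc9 array alone. With the threshold at the 95th percentile of negative controls on each array instead, 21 channel genes were detectable. P2rx7, Trpm4 and Piezo1 were among those that were not. The 100 remaining genes lay between 2.93 and 6.41 on both arrays, among them all 5 Kcne accessory subunits, 14 of 15 inward rectifiers (Kcnj) and 29 of 33 voltage-gated potassium channel genes. All measured Trpc genes and all measured Cacna2d genes, which encode calcium channel accessory subunits, were also among them. No fold is given for these 100. Trpm6 (3.66 and 5.58) and Trpm2 (3.79 and 4.89) were the 2 among them with measured differences over 2-fold. Intensities of different probe sets are not read as relative amounts of RNA, since probes differ in how brightly they report. The common threshold and the brightness ranges used below rest on signal alone.

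Among the 36 detectable genes, 3 were at least 2-fold higher on the Tc9 array, namely Kcnk5, Cacnb1 and Cacng4, and 1, Kcna3, was at least 2-fold lower. Over all 10184 detectable gene probe sets, 2.62% were as much higher and 2.8% as much lower, or 5.42% in either direction, beside 11.1% (4 of 36) of the channel genes. A share set by 4 genes moves by much with each of them, and Cacng4 was below the threshold on the Tc1 array. The shares also depend on brightness. Of the 36, 24 had a mean log2 intensity under 8, and 2 of these 24 passed 2-fold, beside 8.56% of all detectable probe sets in that range. Of the remaining 32 genes, 27 lay within 1.5-fold. The median difference, as log2 Tc9 minus log2 Tc1, was -0.08 over the 36 channel genes and 0.05 over all detectable probe sets. Of the channel genes 22 were lower and 14 (38.9%) higher, beside 56.3% higher of all detectable probe sets. The 6 genes detectable on the Tc1 array alone are lower by construction, and the 2 on the Tc9 array alone higher. The quartiles were -0.29 and 0.16 for the channel genes and -0.19 and 0.26 for all detectable probe sets. Centring each array on its median raised every difference by 0.07, which turned the sign of Kcnh2, Kcnj14 and Kcnk10, while quantile normalization turned Itpr2. No other detectable channel gene changed sign under these scalings.

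**Figure D1:**
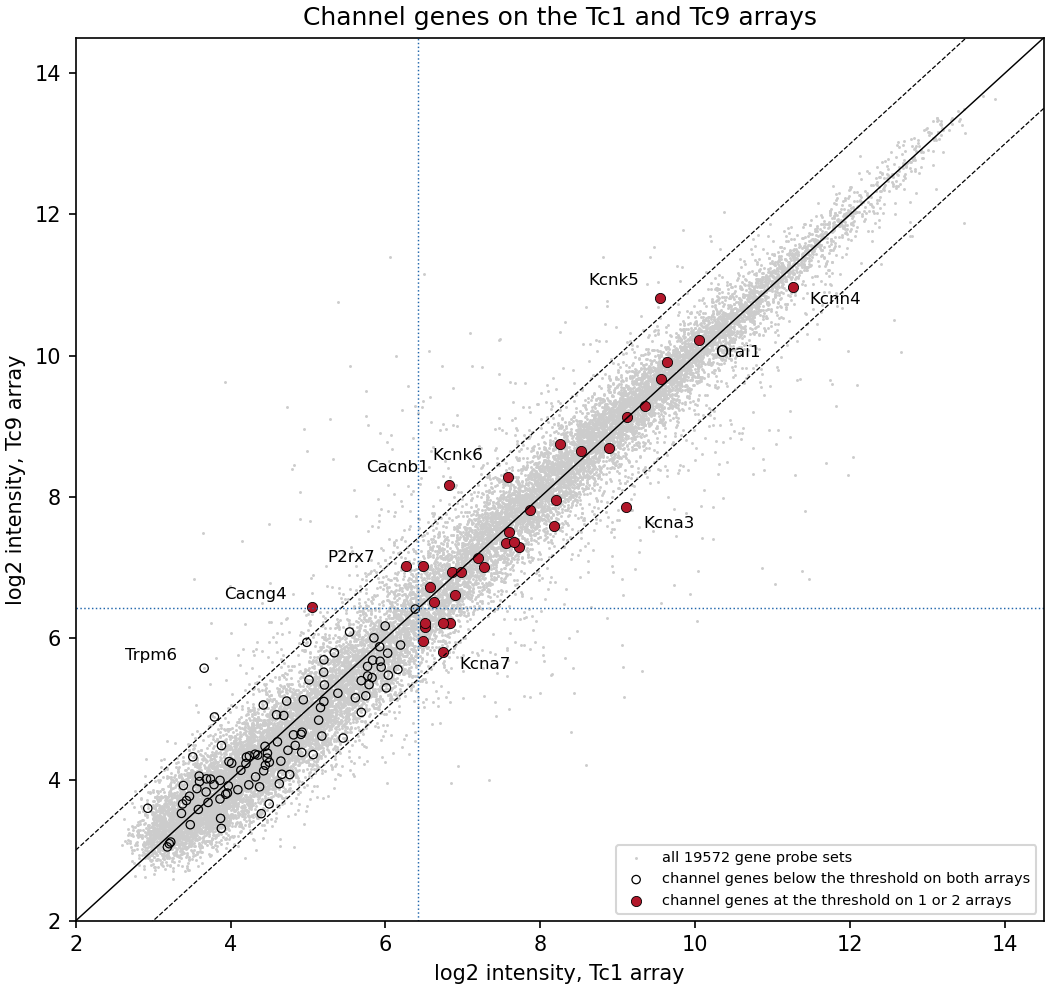
Log2 intensity of each probe set on the Tc1 array (x axis) and the Tc9 array (y axis), for all gene probe sets (grey), channel genes under the detection threshold on both arrays (open circles) and detectable channel genes (red); the solid line marks equal signals, the dashed lines a 2-fold difference and the dotted lines the threshold of 6.42. Kcnk5, Cacnb1 and Cacng4 lie above the upper dashed line and Kcna3 below the lower one, and Kcnn4 and Orai1 lie near the line of equality.

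**Figure D2:**
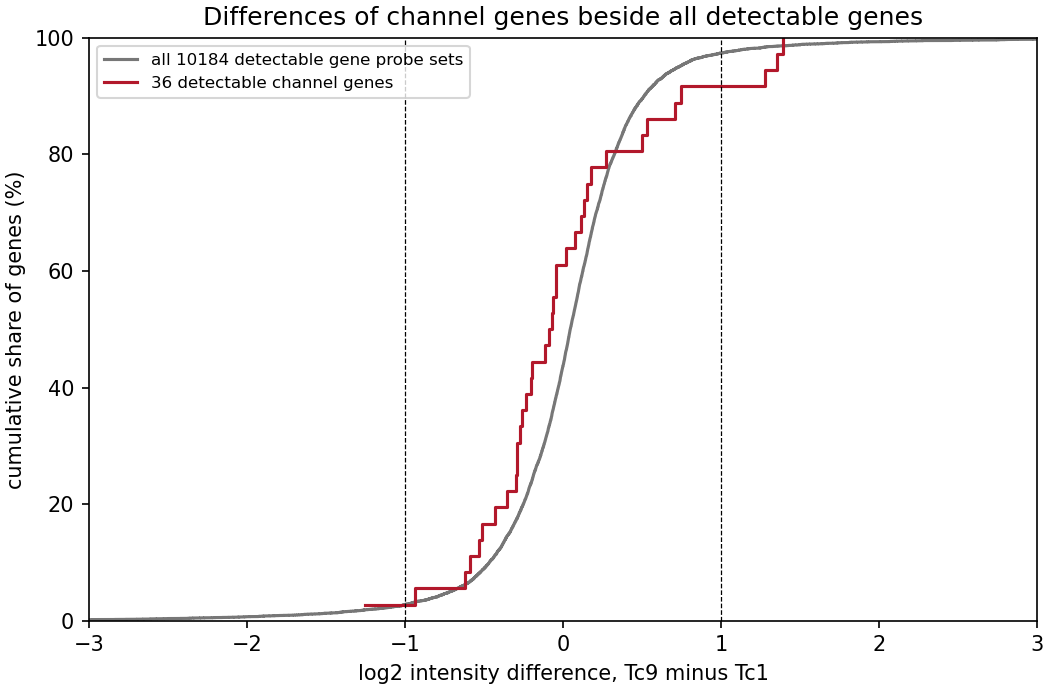
Cumulative share (%) of the 36 detectable channel genes (red) and of all 10184 detectable gene probe sets (grey) by log2 difference, Tc9 minus Tc1; the dashed lines mark 2-fold. The red curve lies to the left of the grey one around 0, with medians of -0.08 and 0.05, and ends in the 3 genes past 2-fold toward Tc9.

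The potassium channels with the largest differences went opposite ways. Kcna3, which encodes Kv1.3, had log2 intensities of 9.11 in Tc1 cells and 7.86 in Tc9 cells. It was thus 2.38-fold lower in Tc9 cells and stayed above the threshold on both arrays. Kcnk5, which encodes the K2P channel TASK-2, an acid-sensitive leak channel that passes potassium without voltage gating, was at 9.54 and 10.82. It was 2.42-fold higher in Tc9 cells. Kcnn4, which encodes KCa3.1, was at 11.26 and 10.97, a difference of 1.23-fold. Of the potassium channels best known in T cells, the voltage-gated one therefore had the lower signal on the Tc9 array, TASK-2 the higher one, and the calcium-activated one differed little. Among all gene probe sets with a mean log2 intensity of 10 or more, where Kcnk5 lies, 0.774% were at least 2-fold higher on the Tc9 array. Among those with a mean of 8 to 10, where Kcna3 lies, 2.33% were at least 2-fold lower. B cells also express Kcna3. The B cell markers had a median log2 difference of -0.43 and the CD8 T cell markers one of -0.29, against -1.25 for Kcna3, with Cd5 and Cd6 the CD8 T cell markers past 2-fold, at -1.66 and -1.64. The part of either cell type in the Kcna3 difference was not tested.

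The promoter sequences of Kcna3, Kcnk5 and of Cacnb1, described below, are shown as the regions before the genes that differed most while above the threshold on both arrays. They are the 250 bases before the RefSeq start site in GRCm38.p6, read 5′ to 3′ on the gene's strand, at chr3:107035912-107036161 (plus strand), chr14:20181783-20182032 (minus strand) and chr11:98022628-98022877 (minus strand, the more upstream of 2 annotated starts). Capitals mark the NFAT core GGAAA on either strand.
Kcna3: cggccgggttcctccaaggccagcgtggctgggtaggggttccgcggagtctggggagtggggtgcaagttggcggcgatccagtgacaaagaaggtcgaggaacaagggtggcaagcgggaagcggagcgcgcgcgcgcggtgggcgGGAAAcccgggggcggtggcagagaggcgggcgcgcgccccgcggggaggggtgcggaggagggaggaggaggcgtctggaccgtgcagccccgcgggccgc
Kcnk5: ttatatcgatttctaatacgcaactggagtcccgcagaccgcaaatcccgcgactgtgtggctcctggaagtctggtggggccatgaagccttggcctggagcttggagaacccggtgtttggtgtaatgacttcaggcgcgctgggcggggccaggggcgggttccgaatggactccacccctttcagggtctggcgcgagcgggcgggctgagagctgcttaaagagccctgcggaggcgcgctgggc
Cacnb1: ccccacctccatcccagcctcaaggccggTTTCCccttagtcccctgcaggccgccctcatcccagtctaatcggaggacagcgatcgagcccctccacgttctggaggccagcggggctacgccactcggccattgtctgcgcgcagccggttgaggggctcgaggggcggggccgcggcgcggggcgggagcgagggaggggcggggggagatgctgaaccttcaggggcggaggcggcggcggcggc
All 3 windows are rich in G and C, at 74.4%, 62.8% and 73.2%, against a median of 52.4% over the 32851 promoter windows of the same length. Kcna3 has 1 match to GGAAA, from 102 to 98 bases before the start, and Cacnb1 has 1 on the other strand, from 221 to 217 bases before it. Kcnk5 has no match. This short motif occurs in 55.6% of all windows. None of the 3 windows holds the gamma-activated STAT motif TTCNNNGAA (7.02% of all windows), the STAT6 motif TTCNNNNGAA (5.85%) or the T-box core AGGTGTG (5.10%), each searched on both strands. The gamma-activated and STAT6 motifs share their outer bases but differ in spacing, so a match to 1 is not a match to the other at the same place. A match is a description of letters and not of binding.

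The other detectable potassium channels differed by less than 2-fold. Of 33 voltage-gated potassium channel genes, 4 were detectable and all 4 had the lower signal on the Tc9 array, although Kcnh2 turned after median centring. Over all 10184 detectable probe sets, 4450 were lower on the Tc9 array. Kcna7 was detectable on the Tc1 array alone, which fixes its direction. Kcna7, a relative of Kcna3 known from muscle, was at 6.74 and 5.80, which is at least 1.25-fold lower, since the Tc9 value lay below the threshold. Kcnq5, which encodes a slowly activating M-type channel, was at 8.20 and 7.96, and Kcnh2, which encodes the cardiac hERG channel, at 6.98 and 6.93. Kcnn1, a small-conductance calcium-activated channel, was at 6.51 and 6.21, and the inward rectifier Kcnj14 at 7.19 and 7.13. Kcnn1 was also detectable on the Tc1 array alone.

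K2P channels set the resting potential and were the potassium channel class with the most detectable members, 8 of 14. Of these, 3 had the higher signal on the Tc9 array and 5 the lower one. Of all 10184 detectable probe sets, 5734 were higher and 4450 lower. The class median was -0.07, beside 0.05 over all detectable probe sets. Kcnk6, which encodes TWIK-2, a channel known for potassium efflux in macrophages, was at 7.58 and 8.29, or 1.64-fold higher in Tc9 cells. Kcnk3, which encodes TASK-1, was at 6.84 and 6.22, at least 1.33-fold lower. Like Kcnk3, Kcnk15 (6.48 and 5.97) and Kcnk4 (6.51 and 6.16) were above the threshold on the Tc1 array alone. This fixes the direction of all 3 as lower. Kcnk13, Kcnk10 and Kcnk7 had differences of -0.09, -0.05 and 0.08. Of the 5 genes above the threshold on both arrays, Kcnk5 at 1.28 had the largest difference upward and Kcnk13 at -0.09 the largest downward.

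**Figure D3:**
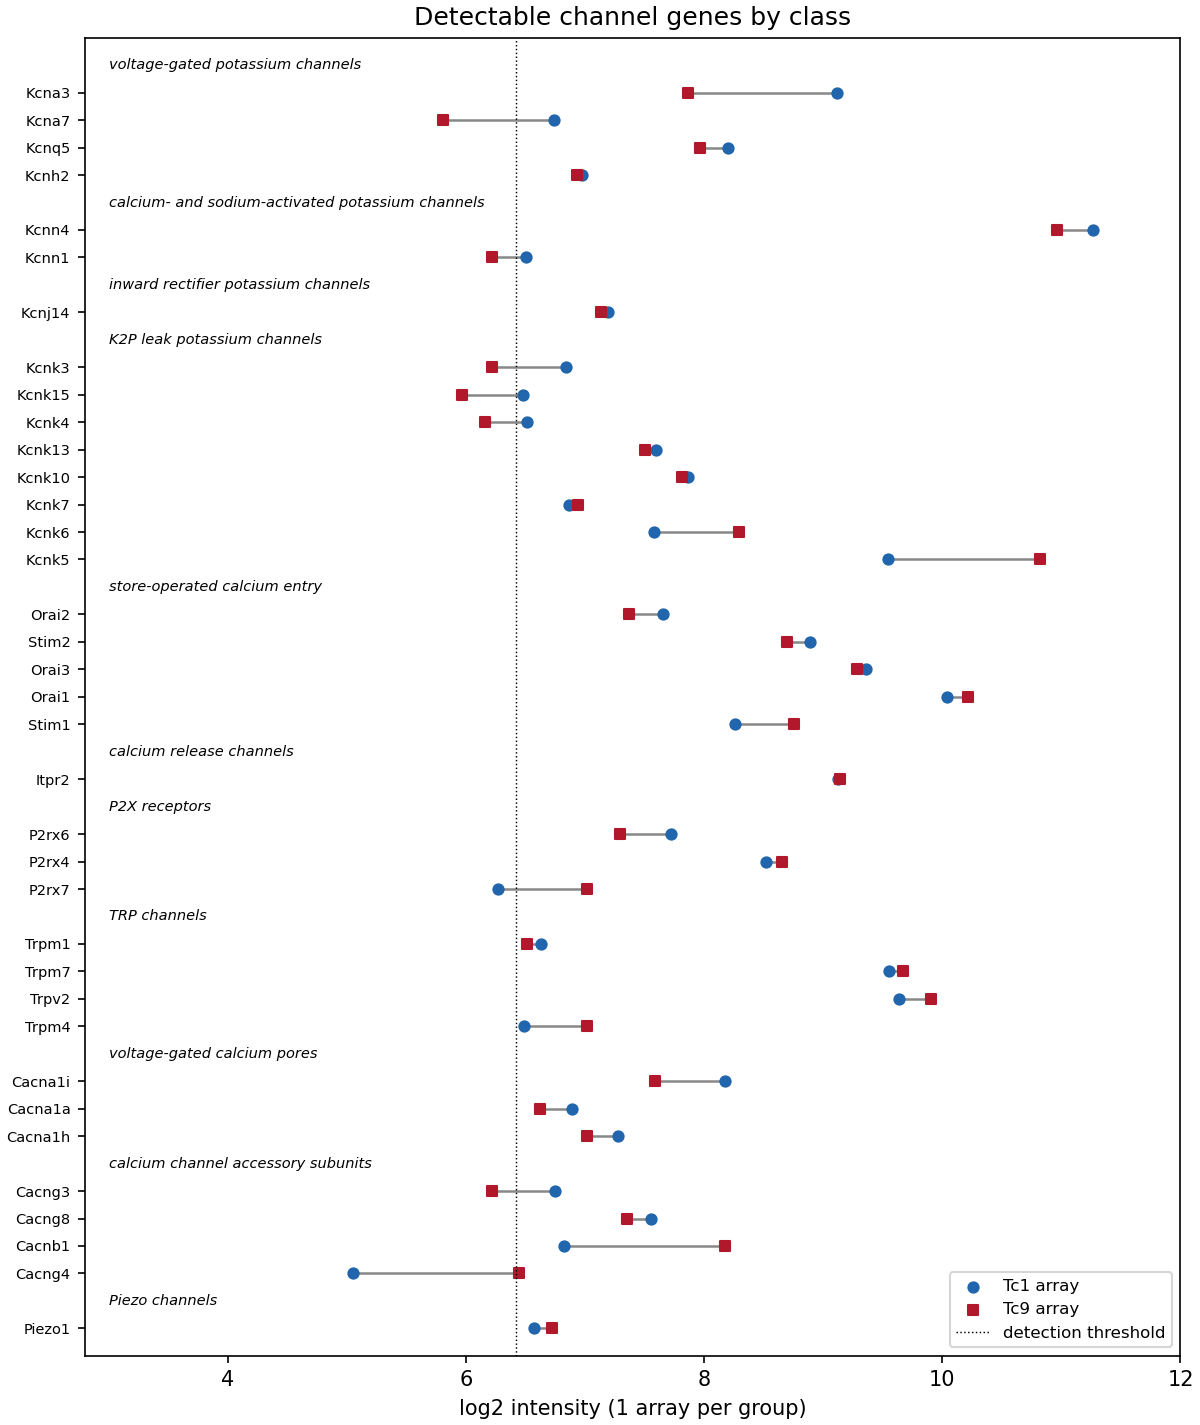
Log2 intensity of the 36 detectable channel genes on the Tc1 array (blue circles) and the Tc9 array (red squares), 1 array per group, ordered by class; the dotted line is the detection threshold of 6.42. The longest lines belong to Kcna3, Kcnk5, Cacnb1 and Cacng4, and the store-operated entry genes are all within 1.5-fold.

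The store-operated entry machinery was the best detected class, with all 5 genes above the threshold on both arrays, and none differed by 1.5-fold. Stim1, the main sensor of the endoplasmic reticulum store, was at 8.26 and 8.76, or 1.41-fold higher in Tc9 cells. Stim2, a sensor of smaller store losses, was at 8.89 and 8.69, or 1.15-fold lower. The signals of these sensors thus differed in opposite directions and by little. Orai1, the pore of the calcium release-activated current, was at 10.04 and 10.22. Orai2, a pore subunit that forms channels with Orai1 in T cells, was at 7.66 and 7.37, and Orai3 at 9.36 and 9.28. The Orai differences lay between -0.29 and 0.18. Of the calcium release channels, Itpr2, an IP3 receptor, was at 9.12 and 9.14, while Ryr1 (4.32 and 4.04) and Ryr2 (5.75 and 5.19), ryanodine receptors, were under the threshold. Itpr1, Itpr3 and Cacnb3 were not analysed here.

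Of 7 P2X receptors, 3 were detectable. P2rx7, the receptor that responds to high ATP and drives shedding and death in T cells, was at 6.27 in Tc1 cells and 7.02 in Tc9 cells. The Tc1 value lay under the threshold, so the difference is at least 1.51-fold toward Tc9. Neither value reached the 95th percentile of negative controls on its array, 7.3021 for Tc1 and 7.0191 for Tc9. P2rx4, its neighbour on chromosome 5, was at 8.52 and 8.65, or 1.10-fold higher. P2rx6 was at 7.72 and 7.29, or 1.34-fold lower. P2rx1 (5.21 and 5.69) and P2rx5 (5.16 and 5.02), which are also described in T cells, were under the threshold on both arrays. No P2X gene passed 2-fold while detectable.

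TRP channels are cation channels with varied triggers, and 4 of the 19 measured were detectable. Trpm4, a sodium-passing channel opened by calcium that lowers the drive for calcium entry, was at 6.49 and 7.02, or 1.44-fold higher in Tc9 cells. Trpv2 was at 9.64 and 9.91, or 1.21-fold higher. Trpm7, a magnesium-permeable channel fused to a kinase, was at 9.55 and 9.67, or 1.08-fold higher, and Trpm1 at 6.63 and 6.51. The mechanically gated channel Piezo1 was at 6.57 and 6.72, or 1.11-fold higher, and Piezo2 was under the threshold at 3.97 and 3.91.

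Among voltage-gated calcium channels, an accessory subunit differed most. Cacnb1 encodes a beta subunit, a cytoplasmic protein that brings the pore to the membrane and tunes its gating. It was at 6.82 and 8.18, both above the threshold, a measured difference of 2.56-fold. The Tc1 value lay under the 95th percentile of negative controls on that array, a log2 intensity of 7.30. The detectable pore genes had differences of the other sign. Of 10 measured Cacna1 genes, 3 were detectable and all 3 had the lower signal on the Tc9 array, as did 4450 of all 10184 detectable probe sets. Cacna1i, a low-voltage-activated T-type pore, was at 8.17 and 7.59, a log2 difference of -0.59. Cacna1h, also T-type, was at 7.27 and 7.01, and Cacna1a, the P/Q-type pore of neurons, at 6.89 and 6.62. The L-type pores Cacna1d (4.01 and 4.23), Cacna1f (3.23 and 3.12), Cacna1c (5.85 and 6.01) and Cacna1s (6.01 and 5.30) were under the threshold on both arrays. So were the beta subunits Cacnb2 (5.69 and 5.40) and Cacnb4 (3.48 and 3.36).

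The gamma subunit genes Cacng4 and Cacng3 crossed the threshold in opposite directions. Cacng4, which encodes a subunit that also accompanies neuronal glutamate receptors, was at 5.05 and 6.44. Its measured log2 difference of 1.39 was the largest of the 36, but with the Tc1 value set at the threshold the fold is only at least 1.01. Cacng3 was at 6.75 and 6.22, and Cacng8 at 7.55 and 7.35. For dim probe sets large differences were common in general, since 8.56% of all detectable probe sets with a mean log2 intensity under 8 passed 2-fold. Of the negative control probe sets that reached the threshold, 16.1% (95 of 589) did so, 73 of them lower on the Tc9 array. The mean of Cacnb1 was 7.50, in the same range, where 4.54% of all detectable probe sets were at least 2-fold higher.

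Many channel genes lie side by side in the genome, and no channel gene next to Kcna3, Kcnk5 or Cacng4 was detectable. In the RefSeq gene table, 17 pairs of channel genes follow each other with no other protein-coding gene between them, which involves 30 of the 136 genes. P2rx7 and P2rx4 were the 1 pair with both genes detectable, at differences of 0.75 and 0.13. In 6 pairs 1 gene was detectable and in 10 neither was. Kcna3 stands next to Kcna2 on chromosome 3, followed by Kcna10, and these were under the threshold at 5.77 and 5.60 and at 4.48 and 4.37. Kcnk5 stands next to Kcnk16 on chromosome 14, which was at 3.58 on both arrays. Cacng4 stands between Cacng1 (5.77 and 5.47) and Cacng5 (5.69 and 4.95) on chromosome 11, and both of these had measured differences of the opposite sign while under the threshold.

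Genes that act with the channels were read from 6 companion lists, with 1 probe set a gene. The genes past 2-fold while detectable were Nt5e, P2ry1 and Clcn3. Of 11 measured genes of ATP release, ATP breakdown and P2Y receptors, 6 were detectable, 2 were at least 2-fold higher on the Tc9 array, beside 2.62% of all detectable probe sets, and none was as much lower. All 6 had higher signals on the Tc9 array, as did 56.3% of all detectable probe sets, and the median difference was 0.52 beside 0.05 over all of them. P2ry1 was detectable on the Tc9 array alone, which fixes its direction. Under the threshold on both arrays, P2ry13, P2ry12 and P2ry6 had measured differences of -1.48, -0.74 and -0.31, and P2ry2 and Entpd2 of 0.04 and 0.01. The median over all 11 was 0.28. P2ry1, an ADP receptor coupled to calcium release, was at 5.92 and 7.74, at least 2.49-fold higher. Nt5e, the ectoenzyme that makes adenosine from AMP, was at 6.56 and 10.06. Its Tc1 value lay under the 95th percentile of negative controls on that array, a log2 intensity of 7.30. P2ry10, a receptor for lysophospholipids, was at 9.31 and 9.90, or 1.51-fold higher, and Panx1, an ATP release channel, at 9.43 and 9.88. Entpd1, the CD39 enzyme that breaks down ATP, had a difference of 0.28.

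In the companion lists of calcium entry regulation, calcium pumps and calcineurin, no detectable gene passed 2-fold. Of 15 measured calcineurin and NFAT genes, 14 were detectable and none passed 2-fold, with a median of 0.14. Camk2d, a calmodulin-dependent kinase, was at 10.01 and 10.46, Rcan1, a calcineurin regulator and NFAT target, at 7.06 and 7.47, Nfatc2 at 8.70 and 9.11, and Ppp3ca, a calcineurin catalytic subunit, at 9.47 and 9.17. None of the 9 detectable genes of calcium entry regulation and the mitochondrial uniporter passed 2-fold, with a median of 0.12. Mcu, the pore through which mitochondria take up calcium, had the largest difference of that list, at 8.56 and 7.68, or 1.84-fold lower in Tc9 cells, beside Cracr2a (7.23 and 7.59), Vdac1 (11.02 and 11.28) and Saraf (9.73 and 9.91). None of the 10 detectable pumps, exchangers and lysosomal channels passed it either, with a median of 0.13. The plasma membrane calcium pump Atp2b1 was at 6.30 and 6.76. It was detectable on the Tc9 array alone, which fixes its direction. The endoplasmic reticulum pump Atp2a3 was at 9.83 and 10.12, and the lysosomal channels Mcoln1 and Tpcn2 at 8.94 and 9.33 and at 7.34 and 7.58.

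Of 16 measured genes of cell volume, chloride and sodium-potassium transport, 15 were detectable, 1 was at least 2-fold higher on the Tc9 array and none was as much lower, beside 2.62% and 2.8% of all detectable probe sets, and the median was 0.07 beside 0.05. Clcn3, an endosomal chloride-proton exchanger, was at 9.52 and 10.69, or 2.24-fold higher. Lrrc8a, the required subunit of the volume-regulated anion channel, was at 7.35 and 8.25, or 1.88-fold higher, while of its detectable partners Lrrc8d (10.27 and 9.71) and Lrrc8b (7.87 and 7.42) were lower and Lrrc8c hardly differed (11.79 and 11.77). Atp1b1, a beta subunit of the sodium-potassium pump, was at 7.44 and 8.17, and Clic4 at 10.78 and 9.86, or 1.89-fold lower. Of 14 relatives of the potassium channels outside the naming rule, 3 were detectable and none passed 2-fold. Kcnab2, the beta subunit that binds Kv1 channels, was at 11.41 and 11.39, beside the difference of -1.25 for Kcna3. Kcnmb4 and Kcnmb1, beta subunits of the large-conductance calcium-activated channel, were at 6.92 and 7.54 and at 6.41 and 6.71. Kcnmb1 was detectable on the Tc9 array alone, which fixes its direction.

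**Figure D4:**
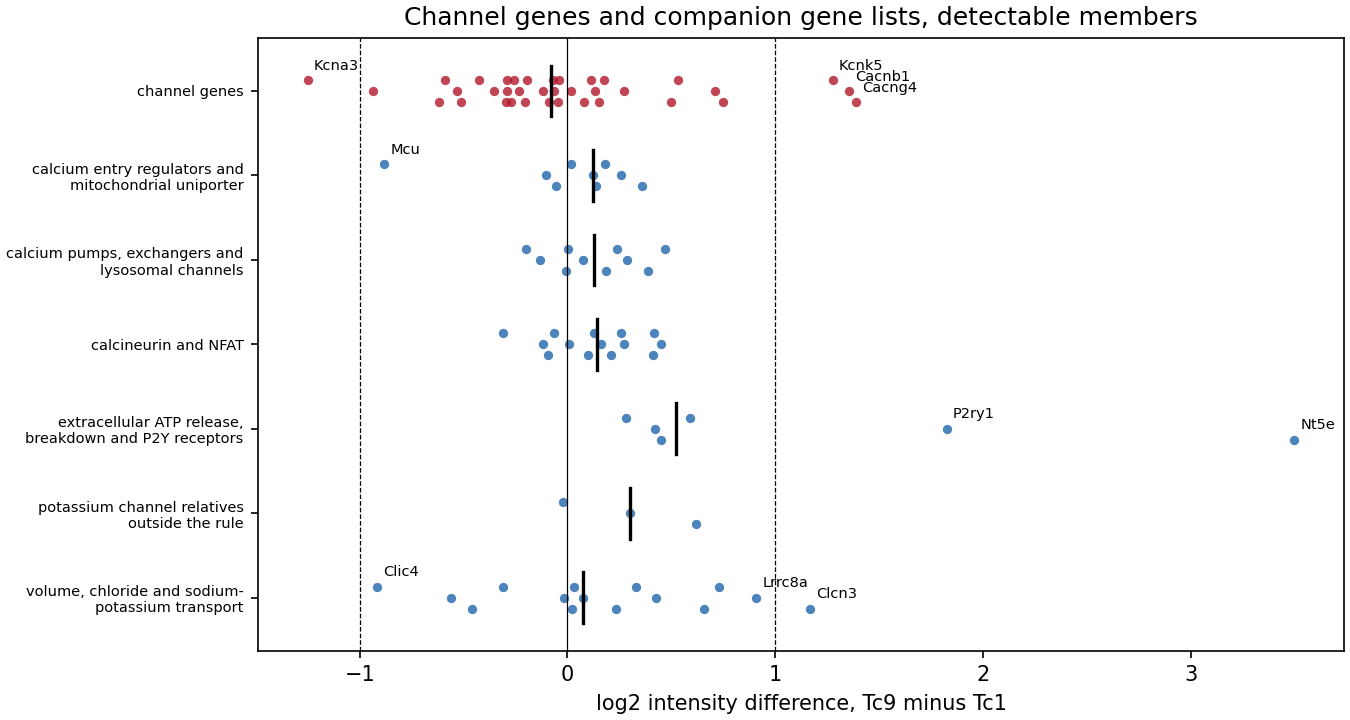
Log2 difference, Tc9 minus Tc1, of each detectable gene among the channel genes (red) and in the 6 companion lists (blue); points are genes, black bars are medians and dashed lines mark 2-fold. The 6 detectable genes of ATP release, ATP breakdown and P2Y receptors lie wholly above 0, with a median of 0.52. P2ry1 among them was detectable on the Tc9 array alone, and the median over all 11 measured genes was 0.28. The calcineurin and NFAT list lies within 2-fold on both sides.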

How the data were processed

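The authors deposited linear probe set intensities for 2 arrays. How these were summarized, background-corrected and normalized is not given in the sources used. The labels' protocols record Trizol extraction and biotin labelling. Gene probe set medians were 88.1 (Tc1) and 84.0 (Tc9), so intensities were taken as normalized and their log2 was used without further scaling, with median centring and quantile normalization as alternatives. Of 28846 probe sets, 19572 had 1 symbol, none several and 9274 none, and all 136 channel genes matched the GRCm38.p6 RefSeq table, whose promoter table named 106 of them.

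A gene was detectable at a log2 intensity of 6.42 on at least 1 array. A fold with 1 array below it is "at least", from the threshold, and counts use measured differences. The number of arrays and, for dim probe sets, signal near background limit precision, and p-values were not possible. Named channels were those past 2-fold, a fixed set of T cell channels, the 10 brightest and the 5 nearest to 2-fold, plus up to 4 detectable genes a list. Other names were added with values in view. The members and lists were chosen with earlier results of these data known. Rules were tested on simulated data. Python 3.11.15, numpy 2.4.6 and pandas 2.3.3 were used.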

Additional observations from a re-analysis of the deposited data

How the results depend on the processing

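Kcna3 was lower and Kcnk5 higher by 2-fold or more on the Tc9 array under every alternative run, with differences of -1.30 to -1.18 and 1.25 to 1.35 over the 5 scalings and floors. Cacnb1 (1.24 to 1.42) passed in each but the upper-quartile threshold. With the threshold at the 95th percentile of negative controls, Cacnb1 was detectable through its Tc9 value alone. The count of channel genes higher was 1 with the threshold at the upper quartile of genes, by construction with fewer genes tested, and 5 at a size rule of 1.5-fold, where the count lower was 4. The median over detectable channel genes turned to 0.0173 rather than -0.08 at the upper-quartile threshold, which leaves 9 channel genes. Cacng4 was under 2-fold with dim values at the threshold (0.02) and was not detectable with the threshold at the 95th percentile of negative controls, at the upper quartile or required on both arrays. Medians of the companion lists kept their sign. No paired analysis was possible because each group has 1 array. Detection is limited by signal over background, as the threshold lies above 89.7% (Tc1) and 91.7% (Tc9) of negative controls.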
